A study of Mus musculus with 20 samples.

Results

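The oxidative stress response governed by the transcription factor NRF2 was described through 10 genes: Nfe2l2, Keap1, Hmox1, Nqo1, Gsta4, Gclc, Gclm, Gsr, Txnrd1 and Srxn1. They were taken by symbol from a table of read counts for 25719 mouse genes, each symbol matched 1 row, and all 10 were among the 12424 genes that passed the filter on low counts. The libraries came from keratinocytes that had been sorted by flow cytometry out of ear and back skin, with 5 mice in each of 4 groups. Every mouse carried the L2/L2 (floxed) alleles of Cyp11b1, whose enzyme makes corticosterone, and every mouse received tamoxifen on 5 days, with cells taken on day 6. The cKO mice also carried K14-CreERTam, a tamoxifen-activated Cre recombinase under a keratin 14 promoter that acts in keratinocytes, and the controls were littermates without Cre. In the topical cKO and topical control groups the back was shaved and tamoxifen in ethanol was put on the ear (20 µl) and the back (100 µl), whereas the systemic cKO and systemic control groups were injected intraperitoneally with 100 µl of a 10 mg/ml solution in oil and ethanol. A comparison of routes is therefore also one of shaving, solvent and the tamoxifen that reached the skin, which cannot be told apart here. Age and sex are not given in the sources used here.

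NRF2, encoded by Nfe2l2, is held at low protein level by KEAP1, an adaptor that presents it to a CUL3 ubiquitin ligase. Electrophiles and oxidants modify cysteines of KEAP1, NRF2 then accumulates, pairs with a small MAF protein and binds antioxidant response elements. Its targets make and recycle glutathione, reduce thioredoxin and peroxiredoxins, and detoxify quinones, haem and aldehydes. In the epidermis the pathway protects against ultraviolet light and reactive chemicals, and the protein is controlled mainly by its turnover, so that the mRNA of Nfe2l2 need not follow its activity.

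Sequences before the start sites were read to show which of these genes hold the letters of an antioxidant response element close to the start. RefSeq promoters (GRCm38.p6) were found for 6 of the 10 genes, and none was given for Hmox1, Gclc, Gsr and Gsta4. The core of the element, TGACNNNGC on either strand, occurred in the window of 250 bases before to 50 after the start in 4 of the 6 genes, and in 12.4% of 32851 mouse promoters of that length. The 250 bases before the start are printed 5′ to 3′ on the strand of the gene for the 4 genes with a match, of which Txnrd1 has 3 start sites and is shown for the one with the match, and for Nqo1, whose level differed between routes. Capitals mark matches to TGACNNNGC or to the AP-1 site TGAGTCA on either strand, the second extended to 9 letters where it continues as TGANTCAGC.
Nfe2l2 (chr2:75704664-75704913, minus strand): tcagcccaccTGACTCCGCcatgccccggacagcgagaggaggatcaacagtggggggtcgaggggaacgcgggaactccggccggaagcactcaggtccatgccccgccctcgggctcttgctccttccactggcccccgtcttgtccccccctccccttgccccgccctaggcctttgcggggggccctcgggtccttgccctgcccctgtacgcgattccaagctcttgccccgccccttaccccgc
Gclm (chr3:122245307-122245556, plus strand): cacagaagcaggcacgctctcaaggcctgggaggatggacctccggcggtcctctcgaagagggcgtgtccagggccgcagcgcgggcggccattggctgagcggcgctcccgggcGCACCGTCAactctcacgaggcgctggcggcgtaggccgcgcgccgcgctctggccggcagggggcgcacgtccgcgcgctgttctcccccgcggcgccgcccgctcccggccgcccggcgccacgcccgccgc
Txnrd1 (chr10:82858956-82859205, plus strand): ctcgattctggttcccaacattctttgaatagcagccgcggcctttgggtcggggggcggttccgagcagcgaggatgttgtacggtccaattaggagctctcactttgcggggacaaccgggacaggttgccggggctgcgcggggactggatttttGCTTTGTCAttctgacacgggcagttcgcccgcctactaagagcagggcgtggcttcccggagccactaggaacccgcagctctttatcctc
Srxn1 (chr2:152105274-152105523, plus strand): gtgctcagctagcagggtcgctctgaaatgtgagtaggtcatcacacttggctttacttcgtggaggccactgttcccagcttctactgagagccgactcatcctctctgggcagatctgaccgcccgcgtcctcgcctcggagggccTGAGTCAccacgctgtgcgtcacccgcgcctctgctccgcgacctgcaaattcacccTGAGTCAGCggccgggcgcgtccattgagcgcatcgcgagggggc
Nqo1 (chr8:107403206-107403455, minus strand): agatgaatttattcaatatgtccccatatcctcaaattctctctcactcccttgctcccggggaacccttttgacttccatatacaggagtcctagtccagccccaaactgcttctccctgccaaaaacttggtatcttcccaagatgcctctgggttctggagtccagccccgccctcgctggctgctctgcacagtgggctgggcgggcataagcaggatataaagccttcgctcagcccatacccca
In Nfe2l2 the match lay at bases -240 to -232 from the start, in Gclm at -134 to -126 and in Txnrd1 at -92 to -84, the last pair on the strand opposite to the gene. Srxn1 held its TGACNNNGC match after the start, at bases 29 to 37. Before the start it had the AP-1 letters at -102 to -96 and again at -45 to -39, where they continue as TGAGTCAGC. The AP-1 letters occurred in 5.2% and TGANTCAGC, a motif added after the sequences were seen, in 1.19% of the promoters. The TGANTCAGC letters contain an AP-1 site, so the 2 motifs overlap. The Nqo1 and Keap1 windows held none of the 3 motifs, which says only that these letters are not in these windows.

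The libraries held between 11588851 and 50082771 counts. Keratinocyte genes were abundant in all of them: the 7 markers Krt14, Krt5, Krt10, Krt1, Trp63, Perp and Dsp summed to between 89199 and 117878 CPM, which are counts scaled to a common library total. The summed fibroblast markers reached at most 32.0 CPM, and the endothelial markers at most 7.14 CPM. Of the 7 epidermal immune cell markers, the leukocyte gene Ptprc was at 0 in 10 libraries and at most 0.147 CPM in the others. Cd74, on the same list, had 5.46 to 30.3 CPM. The immune markers summed to 6.23 to 11.7 CPM in topical cKO and 14.6 to 31.7 CPM in systemic cKO, without overlap. In controls their sum was 6.81 to 12.7 CPM (topical) and 6.54 to 27.3 CPM (systemic). Of 3 melanocyte markers tested, 1 was called higher in systemic than in topical controls. The part of such cells in the route values was not tested. Cyp11b1 had between 0 and 6 reads in each library, so its loss in cKO could not be seen at this depth. In 6 libraries, all 5 systemic controls and systemic cKO 2, the summed CPM of 11 predicted genes with satellite-like sequence was over 50 (79.0 to 36987), against at most 42.0 in the other 14. These transcripts therefore differ between systemic control and 4 of the 5 systemic cKO libraries, and between all control libraries of the 2 routes.

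Of the 10 genes, Nfe2l2 was the most abundant transcript per length, and Gsta4 and Gclc were the least abundant. Set per kilobase of exon, Nfe2l2 led with 18.1 ± 3.50 CPM per kilobase (SD, n = 20 libraries), followed by Keap1 with 7.99 ± 1.80 and by Gsr, which encodes glutathione reductase, with 7.14 ± 1.82. Nfe2l2 was above Keap1 in 20 of 20 libraries, whereas Keap1 was above Gsr in 13, so the order of that pair was not kept. Txnrd1 (thioredoxin reductase) stood at 3.58 ± 0.852, Gclm (modifier subunit of glutamate-cysteine ligase) at 3.02 ± 0.857, Nqo1 (a quinone reductase) at 2.76 ± 0.878 and Hmox1 (haem oxygenase 1, which breaks down haem) at 2.66 ± 1.19 CPM per kilobase. Each of these 4 differed from the next gene down by less than the spread (SD) of that difference over the libraries, and so did Srxn1 from Gsta4 and Gsta4 from Gclc. Srxn1 (sulfiredoxin, which repairs peroxiredoxins) had 1.62 ± 0.314, Gsta4 (a glutathione transferase for lipid aldehydes) 1.11 ± 0.654 and Gclc (catalytic subunit of glutamate-cysteine ligase) 0.725 ± 0.268 CPM per kilobase. Gclm was thus above Gclc, its partner in the enzyme that limits glutathione synthesis. Relative to the mean, Gsta4 varied most over the 20 libraries (SD 58.7% of the mean) and Nfe2l2 least (19.3%). Gsta4 rests on 9 to 131 reads and Gclc on 18 to 182 reads per library, so both carry more counting error than Nfe2l2 with 668 to 3155.

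**Figure D1:**
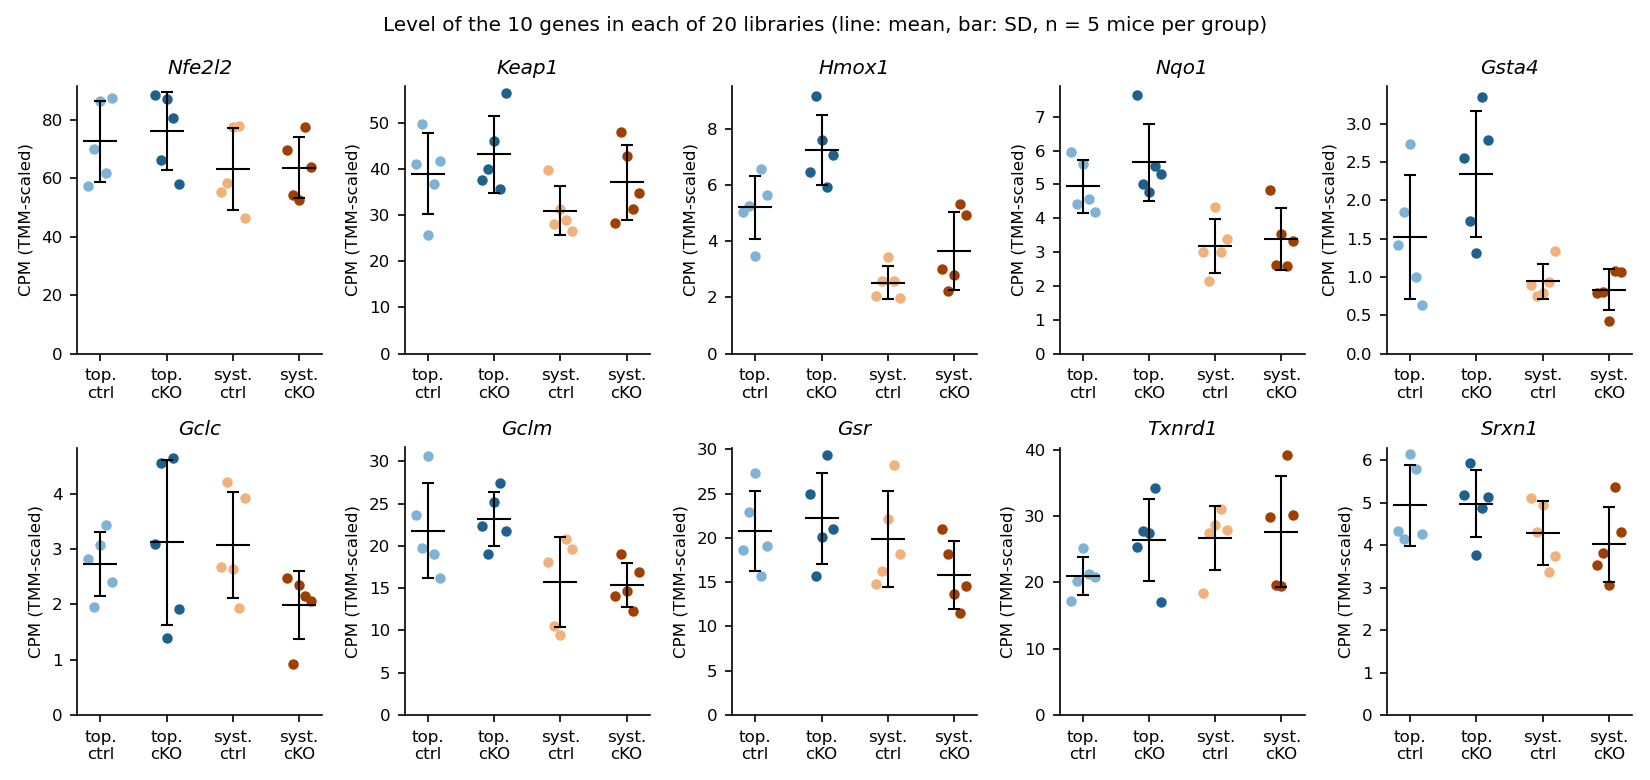
CPM with TMM scaling (vertical axes, from 0) of each of the 10 genes in the 20 libraries, as 1 point per mouse in 4 groups of 5 with the mean as a line and the SD as a bar. Hmox1 and Nqo1 sit lower in both systemic groups than in the topical group of the same genotype, and Nfe2l2 overlaps in all 4 groups.

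Loss of Cyp11b1 was compared with the control within each route, to ask whether keratinocyte glucocorticoid deficiency moves these genes. No member passed the test in either route. In the topical mice 0 of 10 were called (edgeR quasi-likelihood test, Benjamini-Hochberg adjusted p under 0.05), beside 0.129% of all 12424 genes, while 1 was below 0.05 before adjustment. In the systemic mice 0 of 10 were called, beside 1.89% of all genes, while 2 were below 0.05 before adjustment. By DESeq2 (Wald test) 0 of the 10 were called in either route. The CPM of cKO and control overlapped for all 10 genes in both routes, where 1.4% (topical) and 1.94% (systemic) of all genes did not overlap. The median log2 fold change of the 10 was 0.17 in the topical mice, where all 10 were above 0 (Nfe2l2, Gclc, Gclm, Srxn1 and Gsr changed sign in at least 1 other setting or left-out library). It was -0.0075 in the systemic mice, where 5 were above 0 (Nfe2l2, Nqo1, Gclm, Txnrd1, Gsr and Keap1 changed sign in at least 1). Over all genes the medians were 0.020 and -0.0045.

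The regulators gave the narrowest limits. Nfe2l2 (ENSMUSG00000015839, chr2:75675513-75704641) averaged 76.1 ± 13.3 CPM in the topical cKO mice against 72.7 ± 13.9 CPM in their controls (SD, n = 5 each), a log2 fold change of 0.068 with a 95% interval of -0.30 to 0.43. In the systemic groups it was at 63.6 ± 10.4 and 63.2 ± 14.1 CPM, a log2 fold change of 0.0085 with an interval of -0.36 to 0.37. Smaller differences than these bounds could not be seen with 5 mice a group. Keap1 (ENSMUSG00000003308, chr9:21229730-21239361) had log2 fold changes of 0.14 (-0.23 to 0.51) and 0.27 (-0.11 to 0.64) in the topical and the systemic mice.

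Hmox1 (ENSMUSG00000005413, chr8:75093621-75100589) had the smallest unadjusted p of the 10 in both routes. Topical controls had 5.04, 5.26, 3.48, 6.57 and 5.65 CPM, and topical cKO had 6.46, 9.17, 7.61, 5.92 and 7.06 CPM. The groups overlapped, with 3 of the 5 cKO libraries above the highest control. This is a log2 fold change of 0.47 (SE 0.23, unadjusted p 0.0490, adjusted p 0.881 by edgeR). Systemic controls had 2.04, 2.59, 3.42, 2.57 and 1.99 CPM, and systemic cKO had 2.99, 2.22, 2.81, 5.31 and 4.94 CPM. Here 2 of the 5 cKO libraries, 6 and 7, were above the highest control. Its log2 fold change here was 0.53 (SE 0.24, unadjusted p 0.0381, adjusted p 0.290 by edgeR). In neither route did Hmox1 pass the test.

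The other members gave values on both sides of 0. Gclc (ENSMUSG00000032350, chr9:77754535-77794485) was at 1.99 ± 0.616 CPM in systemic cKO and 3.07 ± 0.953 CPM in systemic control, a log2 fold change of -0.67 (95% interval -1.33 to -0.0090, adjusted p 0.316 by edgeR). Among the settings tried, it passed the test only when the mitochondrial share of counts entered the fit (-0.90, adjusted p 0.00731). That fit called 1320 of all 12424 genes in this comparison, against 235 without the mitochondrial share, so the call is not particular to Gclc. Mitochondrial genes took 1.87% to 7.49% of the counts, and across libraries the log2 CPM of Gclc correlated with that percent at r = 0.87 after the group means were removed (n = 20 libraries, which share depth and normalization). Keap1 stood at r = -0.68 and Txnrd1 at 0.53 by the same measure. In the topical mice the log2 fold change of Gclc was 0.23 (-0.41 to 0.87). Gsta4 (ENSMUSG00000032348, chr9:78182774-78209349) had 0.65 (-0.054 to 1.36) in the topical and -0.23 (-0.9997 to 0.54) in the systemic mice. Txnrd1 (ENSMUSG00000020250, chr10:82833951-82897712) had 0.34 (-0.070 to 0.74) and 0.046 (-0.36 to 0.45). Txnrd1 is overlapped by Eid3 on the same and Gm47073 on the opposite strand, and how such reads were assigned is not given in the sources used here.

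The intervals of the remaining 4 genes all included 0. Nqo1 (ENSMUSG00000003849, chr8:107388225-107403206) had log2 fold changes of 0.20 (-0.21 to 0.62) in the topical and 0.072 (-0.36 to 0.50) in the systemic mice. Gclm (ENSMUSG00000028124, chr3:122245557-122270732) had 0.089 (-0.34 to 0.52) and -0.023 (-0.45 to 0.41). For Gsr (ENSMUSG00000031584, chr8:33652523-33698163) the values were 0.10 (-0.31 to 0.52) and -0.33 (-0.75 to 0.087), and for Srxn1 (ENSMUSG00000032802, chr2:152105516-152111376) 0.022 (-0.35 to 0.40) and -0.097 (-0.48 to 0.28). The question whether the genotype effect differed between routes was put to the interaction term. It called 0 of 10 members, beside 0.25% of all genes (0.0644% called lower), and by edgeR 0 were below 0.05 before adjustment. DESeq2 likewise called 0. Gclc had the largest interaction in size, -0.90 (95% interval -1.82 to 0.024, adjusted p 0.372 by edgeR), followed by Gsta4 with -0.89 (-1.93 to 0.16).

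**Figure D2:**
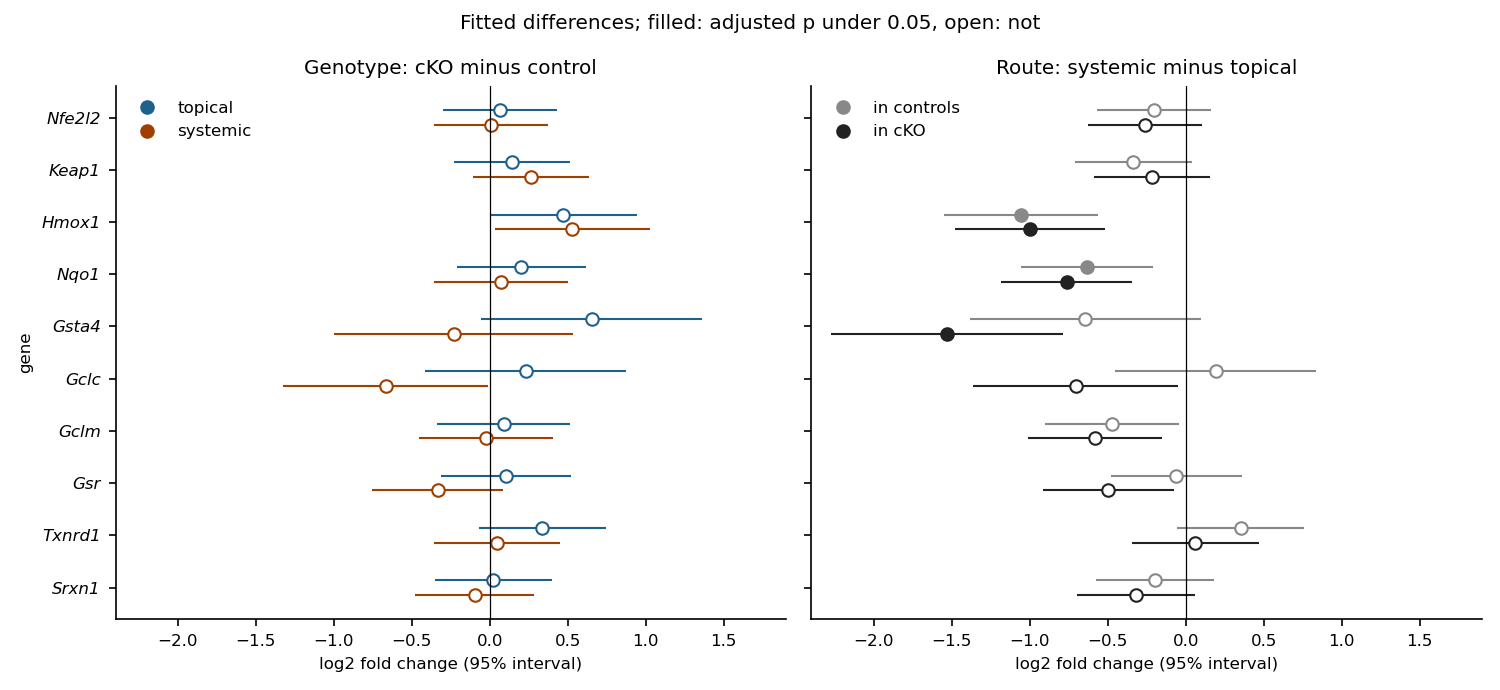
Log2 fold changes with 95% intervals (horizontal axes) for the 10 genes, on the left cKO minus control in the topical and systemic mice and on the right systemic minus topical in controls and cKO; filled points passed an adjusted p of 0.05. No genotype difference is filled, and the filled route differences are Hmox1 and Nqo1 in both genotypes and Gsta4 in cKO.

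The routes were compared within each genotype. The control and the cKO comparison share no library. Hmox1 and Nqo1 were lower in the systemic than in the topical mice in both genotypes, and Gsta4 was lower in cKO. No group was untreated. Where a gene is said below to fall or rise after injection, it was lower or higher in the systemic than in the topical mice. In controls 2 of 10 members were called, both lower, beside 18.3% of all genes (10.2% called higher and 8.16% lower), a share near the background. In cKO 3 of 10 were called, all lower, beside 9.22% of all genes (4.02% called lower). The median log2 fold change of the 10 was -0.27 in controls and -0.54 in cKO, with 8 and 9 of 10 below 0, and over all genes it was 0.00081 and -0.013.

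Hmox1 was about 2 times lower in the systemic than in the topical mice. In controls the 5 systemic libraries lay between 1.99 and 3.42 CPM and the 5 topical ones between 3.48 and 6.57 CPM, without overlap. The log2 fold change was -1.05 (SE 0.24, adjusted p 0.00429 by edgeR), or 0.481 of the topical level. In cKO the systemic libraries lay between 2.22 and 5.31 CPM and the topical ones between 5.92 and 9.17 CPM, again without overlap. The log2 fold change there was -0.999 (SE 0.23, adjusted p 0.00769), or 0.500 of the topical level. Among all genes, 13.8% did not overlap between routes in controls and 7.39% did not in cKO. With each of the 10 libraries of a comparison left out in turn, Hmox1 was called every time in both genotypes.

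Nqo1 fell by less, and its call depended more on single libraries. Topical controls had 5.95, 4.42, 5.60, 4.57 and 4.18 CPM, and systemic controls had 3.0, 2.15, 4.35, 3.0 and 3.40 CPM. Only systemic control 4 reached into the topical range. On the log2 scale the difference was -0.63 (SE 0.20, adjusted p 0.0352 by edgeR). This call was lost on leaving out any of 6 libraries, namely topical control 1 or 5 or systemic control 1, 3, 5 or 6, with adjusted p up to 0.105 without systemic control 3. Topical cKO had 7.64, 5.02, 4.77, 5.54 and 5.31 CPM, and systemic cKO had 4.84, 2.62, 3.55, 2.59 and 3.31 CPM. Systemic cKO 2 was the one systemic library inside the topical range. For cKO the log2 fold change was -0.76 (SE 0.20, adjusted p 0.0196 by edgeR), and the call was lost without topical cKO 2 (0.0746) or systemic cKO 6 (0.0574).

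Gsta4 was lower in systemic than in topical cKO. Topical cKO had 2.55, 1.73, 1.31, 3.34 and 2.79 CPM, and systemic cKO had 0.793, 0.807, 0.422, 1.08 and 1.06 CPM, without overlap. The log2 fold change was -1.53 (SE 0.36, adjusted p 0.00815 by edgeR), or 0.346 of the topical level, and the call held whichever of the 10 libraries was left out. In controls the topical libraries had 1.41, 1.84, 2.73, 1.0 and 0.628 CPM and the systemic ones 0.894, 0.754, 0.790, 0.929 and 1.34 CPM. These groups overlapped, and the log2 fold change was -0.64 (95% interval -1.39 to 0.099, adjusted p 0.217). The difference between the genotypes is the interaction given above, which did not pass the test.

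The glutathione genes Gclm, Gclc and Gsr were not called between routes in the fit of all 20 libraries without covariates. Gclm had 15.4 ± 2.61 CPM in systemic and 23.2 ± 3.21 CPM in topical cKO, and these groups did not overlap. Its log2 fold change was -0.58 (SE 0.21, adjusted p 0.0820 by edgeR), and -0.47 (SE 0.21, adjusted p 0.116) in controls. Fitted on the cKO libraries alone, Gclm passed with an adjusted p of 0.0313, while Nqo1 no longer did, at 0.0503. Across libraries the log2 CPM of Gclm followed the summed sebaceous gland markers at r = 0.71 after the group means were removed (n = 20 libraries). Those 6 markers, led by Scd1, summed to 813 to 3463 CPM in the topical and 173 to 2814 CPM in the systemic libraries, and their part in the Gclm values was not tested. In bulk samples fewer cells of a type and less RNA per cell cannot be told apart. Gclc had log2 fold changes of 0.19 (-0.45 to 0.84) in controls and -0.71 (-1.36 to -0.049, adjusted p 0.182) in cKO. With the mitochondrial share in the fit Gclc was called in cKO (-0.67, adjusted p 0.0237), making 4 members. That fit called 1709 of all 12424 genes in cKO, against 1145 without the mitochondrial share. Gsr had -0.060 (-0.48 to 0.36) in controls and -0.50 (-0.92 to -0.077, adjusted p 0.136) in cKO.

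Txnrd1 was the only member with a positive route value in both genotypes. It had 0.35 (-0.053 to 0.76, adjusted p 0.216 by edgeR) in controls and 0.062 (-0.34 to 0.47) in cKO, where it was below 0 without topical cKO 7 or systemic cKO 6. Srxn1, whose promoter carries the AP-1 letters printed above, had -0.20 (-0.58 to 0.18) and -0.32 (-0.70 to 0.061). For Nfe2l2 the route values were -0.20 (-0.57 to 0.16) and -0.26 (-0.63 to 0.10), and for Keap1 -0.34 (-0.71 to 0.037) and -0.21 (-0.58 to 0.16). None of these 4 genes passed the test. With the satellite-like transcripts in the fit, Srxn1 (0.023) and Keap1 (0.14) were above 0 in controls, and Gclc (-0.23) was below 0.

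Genes of the dissociation response, immediate early genes and heat shock genes that rise while tissue is taken apart, moved with the route as well. Summed over 13 genes including Fos, Jun and Atf3, they lay between 25199 and 35561 CPM in the 10 topical and between 39246 and 58019 CPM in the 10 systemic libraries, without overlap, and 4 of the 13 were called higher after injection in each genotype. Within a route the log2 CPM of Hmox1 correlated with the log2 of that sum at r = 0.12 in the topical and -0.049 in the systemic libraries (n = 10 each), that of Nqo1 at -0.39 and 0.15, and that of Gsta4 at -0.45 and 0.30. The part of the dissociation response in the route differences was not tested. Haemoglobin and other erythroid markers, relevant to haem, summed to 0.723 to 3.55 CPM in the topical and 1.23 to 7.25 CPM in the systemic libraries, and the 1 of 5 that was tested was called higher after injection in both genotypes. Their part in the Hmox1 values was not tested. The satellite-like transcripts separate the systemic from the topical controls exactly. When a term for satellite-like CPM over 50 was added, which in controls rests on systemic cKO 2 alone, the control comparison called 1 of all 12424 genes and 0 of 10 members, so that this count says nothing about the members in particular, with Hmox1 at -0.73 (SE 0.499, adjusted p 0.945) and Nqo1 at -1.32 (SE 0.38, adjusted p 0.368). In cKO, where only systemic cKO 2 is over 50, the covariate left 1055 of all genes called, and the same 3 members were called with it and also without that library. There Hmox1 was at -0.95 (adjusted p 0.0188), Nqo1 at -0.91 (adjusted p 0.00584) and Gsta4 at -1.52 (adjusted p 0.0161) with the covariate.

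**Figure D3:**
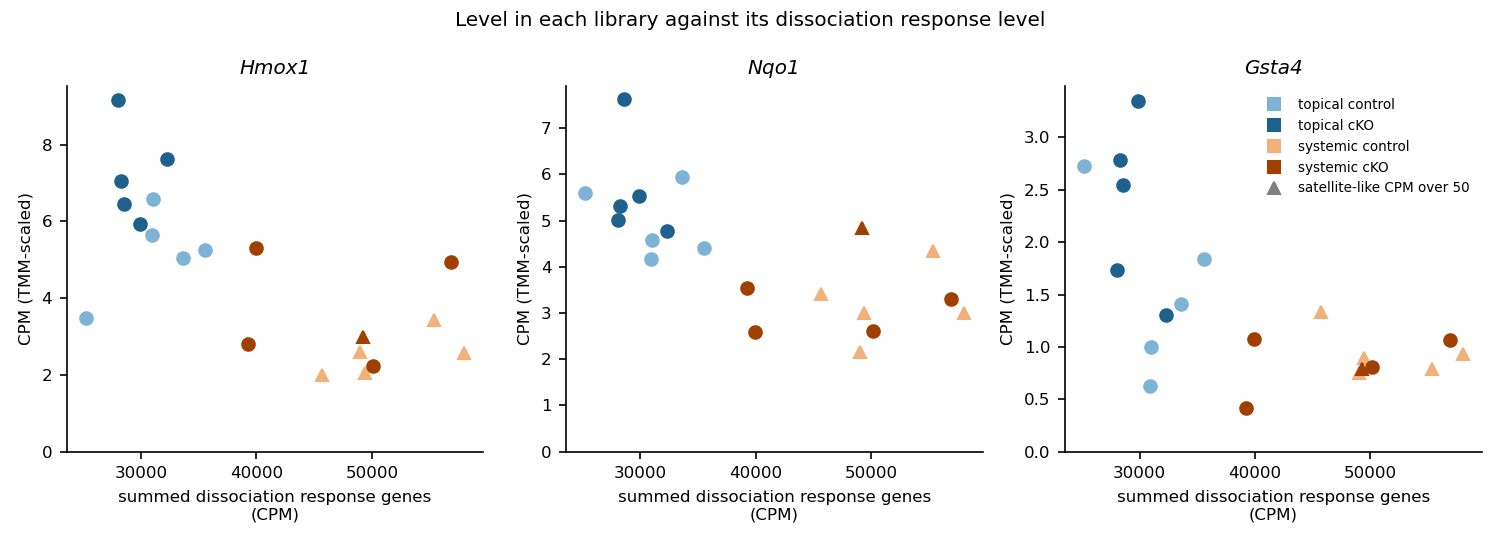
CPM of Hmox1, Nqo1 and Gsta4 in each library (vertical axes, from 0) against the summed level of 13 dissociation response genes on a linear CPM scale (horizontal axes), coloured by group, with triangles for the 6 libraries whose satellite-like transcripts were over 50 CPM. The topical libraries lie at the left and the systemic ones at the right with no overlap.

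A list of 32 other NRF2 targets was measured to set beside the members, and 31 passed the filter. Between genotypes 0 of 31 were called in the topical mice, beside 0.129% of all genes. In the systemic mice 1 of 31 was called, beside 1.89% of all genes. That gene was Me1, the malic enzyme that makes NADPH, with 111 ± 38.7 CPM against 57.5 ± 11.7 CPM in their controls (SD, n = 5 each; log2 fold change 0.95, SE 0.21, adjusted p 0.0218 by edgeR). Me1 was at 0.054 with the satellite-like covariate and lost its call without systemic control 3 or 4 or systemic cKO 4, 5 or 6. In the topical mice Ephx1 (microsomal epoxide hydrolase), named after its values were seen, had 40.5 ± 9.75 CPM against 19.2 ± 2.40 CPM in controls, without overlap, a log2 fold change of 1.08 and an adjusted p of 0.0682, and was called in 6 of the 10 other settings, among them the DESeq2 Wald test (adjusted p 0.00625). The interaction called 0 of 31 by edgeR, beside 0.25% of all genes, with 5 below 0.05 before adjustment. The Wald test of DESeq2 called 2, Gsta2 and Me1, beside 315 of all 11882 genes it tested.

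Most of the other targets had route values below 0, and most were not called. In controls 6 of 31 were called, all lower, beside 18.3% of all genes (8.16% called lower), a total share near the background. In cKO 7 of 31 were called, 5 lower and 2 higher, beside 9.22% of all genes (4.02% called lower). The medians were -0.33 in controls, with 25 of 31 below 0, and -0.15 in cKO, with 22 of 31 below 0. Those called lower in both genotypes were Ftl1, Cbr3, Gss and Akr1b8, which is 66.7% of the 6 called in controls and 57.1% of the 7 called in cKO. Over all genes tested, 19.9% of the control calls and 39.5% of the cKO calls were called in the same direction in both genotypes. Ftl1, the light chain of ferritin, which stores iron such as that freed from haem, fell from 729 ± 182 to 346 ± 170 CPM in controls (log2 fold change -1.07, adjusted p 0.0146 by edgeR). In cKO it fell from 916 ± 237 to 313 ± 73.3 CPM (-1.55, adjusted p 0.00177). Cbr3, a carbonyl reductase, fell by 1.04 in controls (adjusted p 0.00325) and by 0.80 in cKO (adjusted p 0.0242) on the log2 scale. Gss (glutathione synthetase) and Akr1b8 (an aldo-keto reductase), both named after their values were seen, had -0.48 and -0.92 in controls and -0.52 and -0.87 in cKO. In cKO the call of Cbr3 was lost without topical cKO 2 or 7 or systemic cKO 2, 6 or 7 (adjusted p up to 0.0716), and that of Akr1b8 without topical cKO 2 or 5 or systemic cKO 5, 6 or 7 (up to 0.0893). In controls Gss was at an adjusted p of 0.0539 without systemic control 3. Idh1 (isocitrate dehydrogenase), chosen after its values were seen, was the fifth gene lower in cKO (-0.80, adjusted p 0.0292), and its call was lost without topical cKO 2, 5 or 7 or systemic cKO 2, 5, 6 or 7. Fth1, the heavy chain of ferritin, did not pass the test, at -0.10 and -0.058.

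Of the enzymes of the pentose phosphate pathway on the list, Tkt and Pgd were called in controls, and G6pdx and Taldo1 were not called in either genotype. Tkt (transketolase) fell from 294 ± 32.8 to 135 ± 41.5 CPM in controls (log2 fold change -1.12, adjusted p 0.00283 by edgeR) and had -0.53 in cKO (adjusted p 0.176), where it was called without systemic cKO 4 (-0.76, adjusted p 0.0337). Pgd, chosen after its values were seen, fell by 0.81 on the log2 scale in controls (adjusted p 0.00507) and had -0.087 in cKO. With the satellite-like covariate Tkt was at -0.45 and Pgd at -0.075 in controls. Gsta2, a glutathione transferase, went the other way. It rose in cKO from 9.96 ± 2.93 to 29.2 ± 13.2 CPM after injection, without overlap (1.57, adjusted p 0.00272), and had -0.26 in controls. Gsta1 rose in cKO as well (1.72, adjusted p 0.0439), from 0.409 ± 0.236 to 1.30 ± 0.825 CPM, and lost its call without topical cKO 2, 3, 5 or 7 or systemic cKO 4, 5 or 6 (adjusted p up to 0.110). Gsta1 and Gsta2 are near-identical copies and Ftl1 has processed copies in the genome, so reads may be shared between such genes. Without topical cKO 2 or systemic cKO 6 the count in cKO was 3, and without topical cKO 5 or 7 or systemic cKO 5 or 7 it was 4.

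**Figure D4:**
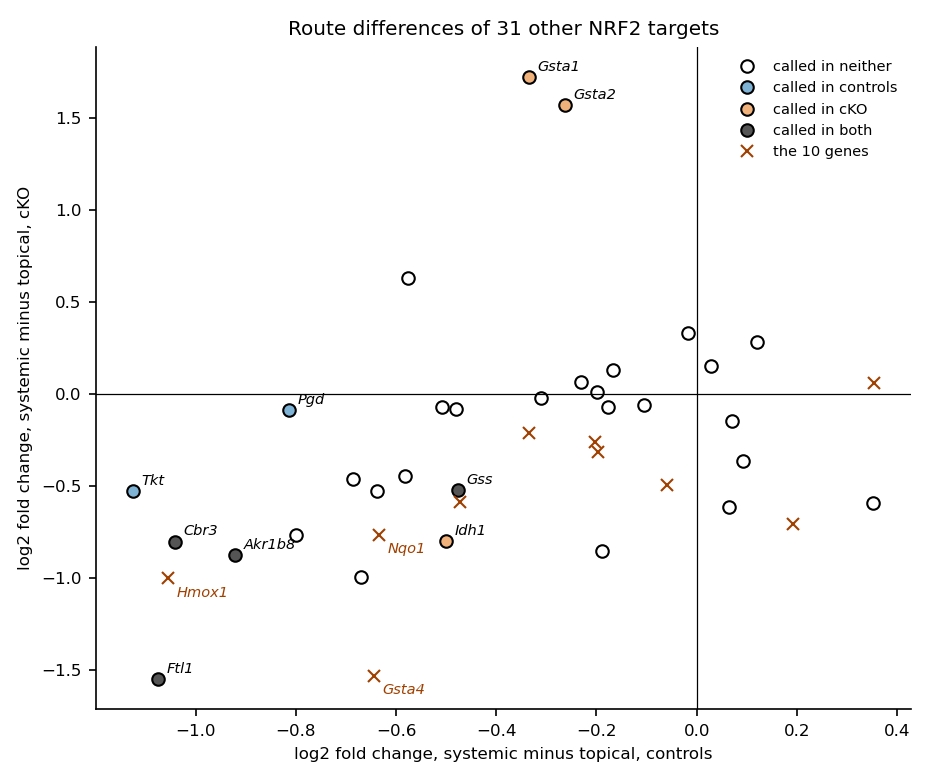
Log2 fold change, systemic minus topical, in controls (horizontal axis) and in cKO (vertical axis) for 31 other NRF2 targets (circles, filled by where they were called) and the 10 members (crosses). Ftl1, Cbr3, Akr1b8 and Gss lie at the lower left with Hmox1 and Nqo1, and Gsta1 and Gsta2 at the top.

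The partners and regulators of NRF2 were called in few cases. Of 13 tested, 0 were called between genotypes in either route and 0 in the interaction, with 0, 4 and 3 below 0.05 by edgeR before adjustment. Between routes 2 of 13 were called in controls and 1 of 13 in cKO, with none in both, beside 18.3% and 9.22% of all genes, so these counts are no more than the background. Nfe2l1, which encodes the related factor NRF1, fell from 208 ± 35.3 to 132 ± 24.5 CPM in controls (-0.65, adjusted p 0.0126 by edgeR), and Btrc, a subunit of a second ligase for NRF2, rose by 0.49 (adjusted p 0.0258). Btrc lost its call without topical control 3 or systemic control 3, 4, 5 or 6. Nfe2l3, encoding another factor of the family, rose in cKO from 2.31 ± 0.487 to 4.83 ± 0.767 CPM (1.07, adjusted p 0.00155), without overlap. Of 16 antioxidant enzymes outside these lists, 0 were called in any of the 5 comparisons by edgeR, with 0 to 2 below 0.05 before adjustment in each. Their median route value was -0.25 in controls, with 13 of 16 below 0, and -0.083 in cKO, with 10 of 16 below 0. Route values below 0 in controls were thus not confined to the NRF2 targets. The most abundant of these enzymes, Gpx1 (a glutathione peroxidase, 950.3 ± 272 CPM over the 20 libraries), had route values of -0.070 in controls and -0.023 in cKO.

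The members did not move as 1 block between mice. After the group means were removed, the 45 pairs of members correlated at r from -0.79 (Txnrd1 and Keap1) to 0.66 (Nfe2l2 and Txnrd1) over the 20 libraries, which share depth and normalization. Hmox1 and Nqo1, both lower after injection, correlated at 0.61 over all libraries and at -0.17 with the group means removed. Hmox1 and Gclm stood at -0.62 by the latter measure. The 8 enzyme members were averaged on a standardized log2 scale, in units of SD over the 20 libraries. This average was 0.67 ± 0.43 in topical cKO, 0.22 ± 0.43 in topical control, -0.34 ± 0.22 in systemic control and -0.54 ± 0.42 in systemic cKO (SD, n = 5 each). Topical cKO 5 was highest with 1.24 and systemic cKO 5 lowest with -1.04. The genes outside the lists whose log2 CPM followed it most closely over the 20 libraries were Lrrc59 (Pearson r = 0.88, Spearman rho 0.79), Capn2 (0.88 and 0.82), Abcg2 (0.86 and 0.73), Stk17b (0.86 and 0.72) and Gsdme (0.85 and 0.85). Lrrc59 encodes a protein of the endoplasmic reticulum, Capn2 a calpain protease, Abcg2 an efflux transporter, Stk17b a kinase and Gsdme a gasdermin. These values include the difference between routes and are given as a description.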

How the data were processed

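RNA was measured in sorted keratinocytes of 20 mice, made into SmartSeq II libraries, per the labels' protocols. The authors deposited 1 table of raw counts, whole-number reads per gene without normalization, 1 column per mouse. STAR, featureCounts and GRCm38 (mm10) are named per the submitters' processing notes; their settings, the annotation release and the strand setting are not given in the sources used here. Library totals were 11588851 to 50082771 counts. The labels mention no molecular identifiers, so the sampling of reads sets only a lower bound on the error. The labels name separate mice as replicates.

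All 20 libraries were fitted together in edgeR 4.0.16 (R 4.3.3): filterByExpr (minimum count 10, minimum total count 15), TMM, a robust quasi-likelihood model with 1 coefficient per group, two-sided F tests, Benjamini-Hochberg adjustment over 12424 genes, threshold 0.05. Intervals are 95% t intervals. CPM are scaled with TMM factors, marker sums and Cyp11b1 with the library total alone. Correlations use log2 CPM with a prior count of 2. The fit was tested on simulated data. Exon lengths and coordinates come from GENCODE vM21 (GRCm38), where 25614 of 25719 identifiers were found. Motifs were searched in RefSeq promoters.

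The members and lists were chosen with earlier results of these data known. All members were named, and of each further list up to 4 called genes with the smallest adjusted p, or the most abundant where none was called; others were chosen after their values were seen. The alternatives comprised the Wald test and the size factors of DESeq2 1.42.0, no count filter, a filter at 5 CPM on average, dispersion without robust estimation, only the libraries compared, the replicate number as a block, satellite-like CPM over 50, mitochondrial percent or sex (Y-linked genes over 5 CPM) as a covariate, and leaving out each of 20 libraries.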

Additional observations from a re-analysis of the deposited data

Results flagged for a closer look

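In 40 sets of 5 libraries (10 genes in 4 groups), 2 had a library far from the other 4 by Dixon's test, where chance alone gives about 1 in 20. Nqo1 in topical cKO 2 was at 7.64 CPM, with the next library at 5.54 CPM; without this library the route comparison in cKO lost its call for Nqo1. Gclc in systemic cKO 4, the deepest library, was at 0.929 CPM, with the next at 2.06 CPM. No interaction of genotype and route passed the test among the members.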

How the results depend on the processing

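For the members, 0 calls in both genotype comparisons and in the interaction held in every setting and left-out library, with 1 exception: mitochondrial percent as a covariate gave 1 (Gclc, lower) in the systemic mice. Between routes the member count was 2 in controls and 3 in cKO. Mitochondrial percent gave 4 in cKO, with Gclc added. A mean of at least 5 CPM gave 0 in both, because 5 of the 10 genes, those called included, are then not tested. The satellite-like covariate gave 0 in controls, where it divides the mice just as the route does. Left-out libraries gave 1 to 2 in controls and 2 to 3 in cKO. For the other NRF2 targets, the topical genotype count of 0 was 1 (Ephx1) without a count filter, with a mean of at least 5 CPM, with mitochondrial percent, with sex, with only the libraries compared and by DESeq2. The systemic count of 1 was 0 with the satellite-like covariate and with only the libraries compared, 2 with sex and by DESeq2, 3 with mitochondrial percent, and 0 to 3 over left-out libraries. The interaction count of 0 was 2 with mitochondrial percent and by DESeq2, and 0 to 2 over left-out libraries. The control route count of 6 was 0 with the satellite-like covariate, 13 with mitochondrial percent and 5 to 7 over left-out libraries. The cKO route count of 7 was 3 to 8 over left-out libraries. Mitochondrial percent raised it by the calls of Me1, Aldh3a1 and Abcc1, and DESeq2 by those of Me1 and Abcc1. Calls over all 12424 genes changed with the setting too. Mitochondrial percent called 1320 in the systemic genotype comparison, 364 in the interaction, 3496 between routes in controls and 1709 in cKO. The satellite-like covariate called 1 between routes in controls. Where no value is given, the cause of a change was not tested. With the replicate number as a block, the control route count of the other targets was 10 and the cKO count 4, and no member count changed. Same-numbered mice of 14 pairs correlated at -0.31 to 0.34 in their deviations from the group means, 6 of them over 0.1, and 2 matched their own number best, so the numbers were not taken to pair the mice. Low counts limit Gsta4 and Gclc most.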
